A study of Homo sapiens with 6 samples.

Results

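Aldehyde dehydrogenase genes were examined in cells exposed to Japoflavone B. The cells were A549, an established line from a human lung adenocarcinoma. The 10 genes described first are ALDH1A1, ALDH1A3, ALDH2, ALDH3A1, ALDH3A2, ALDH3B1, ALDH6A1, ALDH7A1, ALDH9A1 and ALDH18A1. They were chosen by gene symbol, each matched 1 row, and they are 10 of the 61806 genes of the table. The remaining 9 aldehyde dehydrogenase genes of the human family are described after them. Poly(A) RNA was sequenced from wild-type A549 cells given Japoflavone B, with 3 libraries, and from wild-type A549 cells given the solvent DMSO, with 3 libraries. Cells of both groups were seeded for 24 h and then exposed for 24 h, and the labels give the dose of Japoflavone B as 40 without a unit. The study's title presents Japoflavone B as an inhibitor of the DNA damage sensor PARP1 that triggers pyroptotic death. The comparison asks how mRNA levels after Japoflavone B differ from those after DMSO.

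Aldehyde dehydrogenases oxidise aldehydes to carboxylic acids with NAD+ or NADP+ as the electron acceptor. Some members make signalling molecules, such as retinoic acid from retinaldehyde, others remove toxic aldehydes from ethanol or lipid peroxidation, and others are steps of amino acid or carnitine metabolism. A549 cells are known for high ALDH1A1 and ALDH3A1 and carry an inactivating change in KEAP1, the inhibitor of the transcription factor NRF2. ALDH1A1 activity is widely used as a marker of stem-like tumour cells.

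Libraries held 15733769 to 19822366 counts after Japoflavone B and 15298531 to 21744407 after DMSO. Pearson correlations of log2 CPM (counts scaled to a common library total) were 0.926 to 0.931 between libraries of different groups and 0.990 to 0.992 between libraries of one group. Mitochondrial genes took 8.33% to 8.58% of counts after Japoflavone B and 3.97% to 4.70% after DMSO. Of 6 epithelial markers, all were tested and 5 were lower after Japoflavone B, and their summed level was 214 to 227 FPKM (fragment counts scaled by exonic length and library total) against 689 to 771 FPKM after DMSO. EPCAM was low in both groups, at a mean of 0.673 FPKM after Japoflavone B and 0.907 FPKM after DMSO. Summed markers of alveolar type II and club cells, 5 genes, were at 0.20 to 0.41 FPKM after Japoflavone B and 0.030 to 0.11 FPKM after DMSO. Those of fibroblasts (6 genes) were at 0.64 to 0.81 and 4.86 to 5.44 FPKM, of leukocytes (5 genes) at 0.67 to 1.72 and 0.13 to 0.26 FPKM, and of endothelium (4 genes) at 0 to 0.030 and 0.020 to 0.070 FPKM, each after Japoflavone B and after DMSO. By mean FPKM, KRT8 and KRT18 led the epithelial sum, at 83.9 and 130 after Japoflavone B and 257 and 464 after DMSO. COL1A1 led the fibroblast sum, at a mean of 0.473 FPKM after Japoflavone B and 4.64 FPKM after DMSO. CD79A led the leukocyte sum, at a mean of 0.863 FPKM after Japoflavone B and 0.137 FPKM after DMSO. These sums therefore mainly follow single genes. SCGB1A1, CD3E, VWF and KDR had no counts in any library. The part of these shifts in the results below was not tested. In bulk RNA, fewer cells that express a gene and less RNA per cell cannot be told apart.

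The members were lower after Japoflavone B or did not pass the test, and none was higher. Of the 10, which all passed the filter on low counts, 8 fell, 0 rose and 2, ALDH6A1 and ALDH18A1, did not pass (edgeR quasi-likelihood test, Benjamini-Hochberg adjusted p under 0.05). Among all 16082 genes tested, 35.4% were called lower and 34.7% higher, together 70.0%, so a call by itself was common in this comparison. The median log2 fold change was -0.81 over the members and 0.00 over all genes tested. A fall of at least 2-fold was found in 4 members, ALDH1A1, ALDH3B1, ALDH3A1 and ALDH7A1, against 15.0% of all genes, and a rise of that size in 0 members, against 9.67%. In FPKM all 10 members had their 3 Japoflavone B libraries below the 3 DMSO libraries, against 40.7% of all genes; 30.9% were separate and higher, together 71.6%. FPKM are scaled by library totals and the fold changes by trimmed-mean factors, and library totals alone shift the median gene by -0.10 on the log2 scale. With library totals 9 members were called lower, and as TPM (FPKM rescaled to one fixed total in every library, limma test) all 10. The exact two-sided permutation test of log2 CPM gave p = 0.1 for each of the 8 called members, the smallest value that 3 libraries against 3 allow. Separate cultures are not named in the labels; the p-values therefore cover only variation among these 6 libraries, which may be technical.

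**Figure D1:**
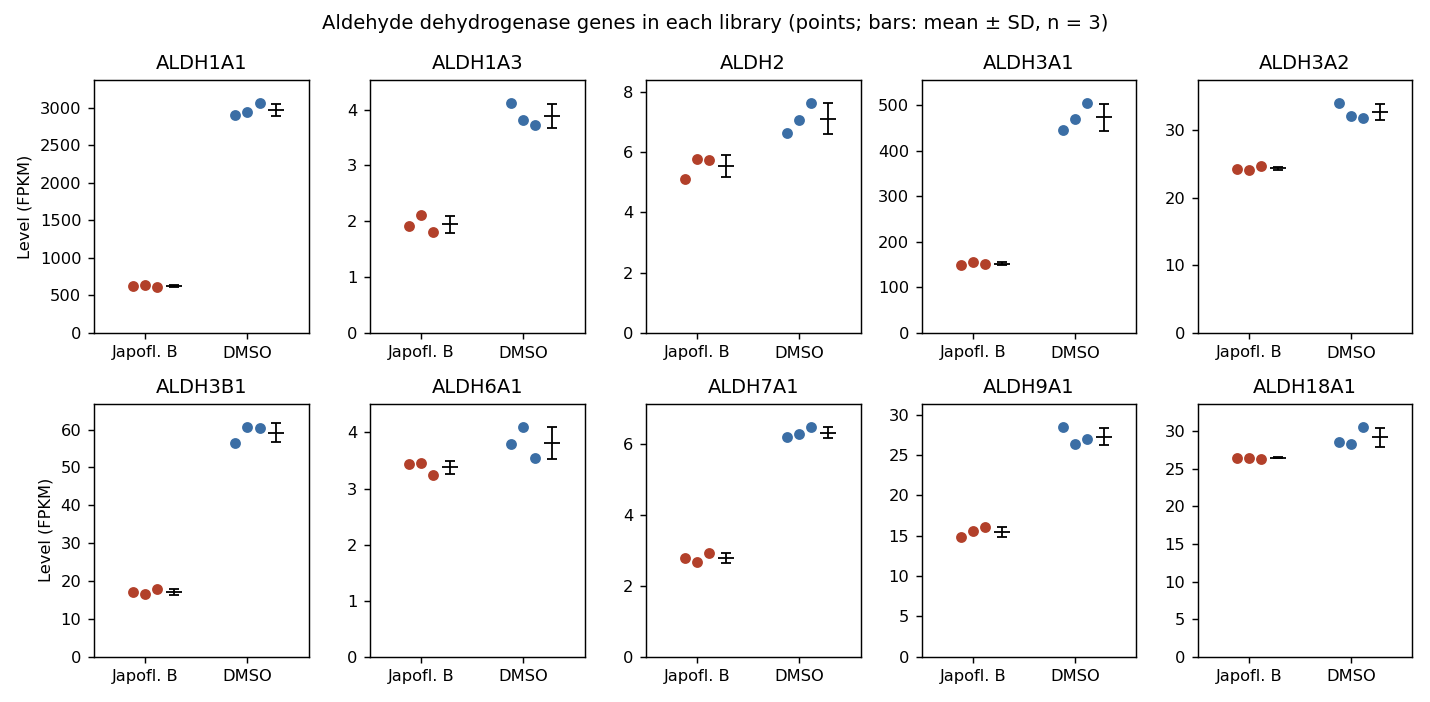
Level of each of the 10 members in FPKM (vertical axes start at 0) in the 3 Japoflavone B libraries (red) and the 3 DMSO libraries (blue), with the mean ± SD beside the points. Every member has its Japoflavone B points below its DMSO points, widely apart for ALDH1A1 (mean 626 against 2973 FPKM) and closely spaced for ALDH18A1 (26.4 against 29.2 FPKM).

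The retinaldehyde dehydrogenases ALDH1A1 and ALDH1A3 both fell. Each makes retinoic acid, the ligand of the nuclear retinoic acid receptors. Their promoter sequences are shown with that of ALDH7A1, as examples of windows with 1 CCAAT box, chosen after the matches and the fold changes were seen. The printed stretches are the 250 bases before the RefSeq start (build GRCh38.p14), 5′ to 3′ in the gene's own direction. Capitals mark CCAAT and, in ALDH1A3, also the xenobiotic response element core GCGTG or its reverse complement. The ALDH1A1 stretch is chr9:72953054-72953303 on the minus strand, that of ALDH1A3 is chr15:100879581-100879830 on the plus strand, and that of ALDH7A1 is chr5:126595220-126595469 on the minus strand.
ALDH1A1: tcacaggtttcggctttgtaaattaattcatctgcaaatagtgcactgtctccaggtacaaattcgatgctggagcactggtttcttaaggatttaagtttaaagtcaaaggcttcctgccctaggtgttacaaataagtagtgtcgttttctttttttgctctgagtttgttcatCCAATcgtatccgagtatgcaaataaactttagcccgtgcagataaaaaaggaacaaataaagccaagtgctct
ALDH1A3: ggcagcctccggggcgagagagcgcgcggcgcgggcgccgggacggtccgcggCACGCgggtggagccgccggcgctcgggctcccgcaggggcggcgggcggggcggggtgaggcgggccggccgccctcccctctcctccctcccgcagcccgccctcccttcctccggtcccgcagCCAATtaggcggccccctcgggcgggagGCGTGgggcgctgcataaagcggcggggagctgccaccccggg
ALDH7A1: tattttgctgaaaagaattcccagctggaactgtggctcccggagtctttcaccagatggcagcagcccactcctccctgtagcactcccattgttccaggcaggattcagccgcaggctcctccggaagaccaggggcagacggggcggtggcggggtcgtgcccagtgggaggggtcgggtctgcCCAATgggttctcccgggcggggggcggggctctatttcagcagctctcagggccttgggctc
The first base of CCAAT lies at -74 in ALDH1A1, -71 in ALDH1A3 and -63 in ALDH7A1, counted back from the start. ALDH3A2, which also fell, has 1 at -30. ALDH6A1, which did not pass, has 4 on either strand, at -168, -126, -67 and -40. A link between these boxes and the fold changes was not tested. Windows from 250 bases before to 50 bases after the start were searched on both strands. They were found for 8 of the 10 members; for ALDH2 and ALDH3A1 none was used. CCAAT was in a window of 5 of these 8 genes (ALDH3A2 and ALDH6A1 also), against 39.7% of 27305 genes. GCGTG was in 2 of 8, ALDH1A3 and ALDH3A2, against 40.6% of genes. The antioxidant response element core TGACNNNGC and the TATA box TATAAA were in none of the 8, against 16.1% and 14.0% of genes. The ALDH1A1 window has 40.3% G and C and 7 CpG, the ALDH1A3 window 81.7% and 46, with medians of 58.7% and 14 over all windows. These matches were chosen with the results known and describe letters only, not binding.

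ALDH1A1 was the most abundant member and fell furthest among the 10. ALDH1A1 (ENSG00000165092, chromosome 9, 72900671 to 73080442, minus strand, GRCh38) had 625, 635 and 618 FPKM after Japoflavone B, against 2910.3, 2943 and 3067 FPKM after DMSO. All 3 treated libraries lay far below the DMSO libraries, and the spread within each group was small beside the gap. The log2 fold change was -2.15 ± 0.05 (SE), or 4.43-fold lower (edgeR adjusted p = 5.64e-24), and 3.21% of all genes tested had a lower fold change. By mean FPKM it ranked 38 among all genes after Japoflavone B and 7 after DMSO. It took 0.178% ± 0.0024 of all counts after Japoflavone B and 0.844% ± 0.0234 after DMSO (SD, n = 3). The annotated gene reaches upstream of the RefSeq start printed above, and the table does not resolve transcripts.

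ALDH1A3, the related enzyme with high activity on retinaldehyde, was expressed far lower. ALDH1A3 (ENSG00000184254, chromosome 15, 100877714 to 100916626, plus strand) had 1.91, 2.11 and 1.81 FPKM after Japoflavone B, against 4.12, 3.81 and 3.72 FPKM after DMSO. The groups did not overlap, and the log2 fold change was -0.90 ± 0.11 (SE; edgeR adjusted p = 2.28e-08). The ratio of ALDH1A1 to ALDH1A3 in FPKM was 301 to 341 after Japoflavone B and 706 to 824 after DMSO. An antisense gene, ALDH1A3-AS1, overlaps ALDH1A3 and had 208 counts over the Japoflavone B libraries and 291 over the DMSO libraries, log2 fold change -0.28 ± 0.19 (SE; edgeR adjusted p = 0.199, not passed). The strand setting of the counting is not given in the sources used here, so reads of such partners cannot be told apart.

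Genes of retinoid handling moved in both directions around these enzymes. Of 27 listed genes of retinoid metabolism and its receptors, 20 were tested, 11 were lower, 8 higher and 1 did not pass, with a median log2 fold change of -0.42. Of all genes tested, 35.4% were lower and 34.7% higher, and these shares stand beside the counts of every list below. As FPKM or TPM, or with a minimum of 2 FPKM, 5 were higher, and with that minimum 6 were lower. STRA6, the membrane importer of retinol, had 3.98, 4.06 and 4.12 FPKM after Japoflavone B, against 8.76, 9.47 and 10.13 FPKM after DMSO (log2 fold change -1.12 ± 0.07 SE; edgeR adjusted p = 6.19e-14). BCO1, which cleaves beta-carotene to retinaldehyde, had 17 counts over the Japoflavone B libraries and 235 over the DMSO libraries (log2 fold change -3.56 ± 0.33 SE; edgeR adjusted p = 2.19e-10). The receptor genes moved in both directions. RARG, named after its values were seen, fell by 0.71 log2. RXRA and RXRB, named likewise, rose by 0.21 and 0.29 log2 with groups that overlapped in FPKM. RARB, itself a known retinoic acid target, averaged 0.707 ± 0.0551 FPKM after Japoflavone B and 2.63 ± 0.144 FPKM after DMSO (SD, n = 3), log2 fold change -1.79 ± 0.11. RARA averaged 13.6 ± 1.01 FPKM after Japoflavone B and 5.47 ± 0.21 FPKM after DMSO, log2 fold change 1.41 ± 0.07. Named after their values were seen, the retinoic acid hydroxylases CYP26A1 and CYP26B1 fell by 2.33 ± 0.62 (SE) and 0.57 log2. CYP26A1 had few counts, 7 over the Japoflavone B libraries and 42 over the DMSO libraries. The retinol dehydrogenase RDH10, which makes retinaldehyde, fell by 0.78 log2. RDH14, RBP4 and RDH13, also named after their values were seen, rose by 0.56, 0.67 and 0.37 log2. The carrier CRABP2 rose by 1.34 ± 0.35 log2 from few counts, 100 over the Japoflavone B libraries and 46 over the DMSO libraries.

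The members of family 3, which oxidise lipid-derived and aromatic aldehydes, fell by unequal amounts. ALDH3A1 is a cytosolic enzyme also abundant in the cornea. ALDH3A1 (ENSG00000108602, chromosome 17, 19737984 to 19748943, minus strand) had 149.7, 155 and 152 FPKM after Japoflavone B, against 445, 470.2 and 505 FPKM after DMSO. Its level in every treated library was far below that in every DMSO library, with a log2 fold change of -1.54 ± 0.05 (SE; edgeR adjusted p = 5.12e-20). It ranked 202 by FPKM after Japoflavone B and 46 after DMSO.

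ALDH3A2 lies 52.2 kb from ALDH3A1 on the opposite strand and encodes the fatty aldehyde dehydrogenase of the endoplasmic reticulum, lost in Sjögren-Larsson syndrome. ALDH3A2 (ENSG00000072210, chromosome 17, 19648136 to 19685760, plus strand) had 24.3, 24.2 and 24.7 FPKM after Japoflavone B, against 34.1, 32.2 and 31.9 FPKM after DMSO. The groups did not overlap, but the log2 fold change was small, -0.32 ± 0.05 (SE; edgeR adjusted p = 1.22e-06). The ratio of ALDH3A1 to ALDH3A2 in FPKM was 6.24 ± 0.148 after Japoflavone B and 14.5 ± 1.39 after DMSO (SD, n = 3).

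ALDH3B1, an enzyme of medium- and long-chain aldehydes at membranes, fell 3.21-fold. ALDH3B1 (ENSG00000006534, chromosome 11, 68008578 to 68029282, plus strand) had 17.1, 16.5 and 18.0 FPKM after Japoflavone B, against 56.4, 60.7 and 60.5 FPKM after DMSO. The treated libraries lay within 1.5 FPKM of each other, and the log2 fold change was -1.68 ± 0.05 (SE; edgeR adjusted p = 1.13e-20). Unnamed genes on the opposite strand overlap ALDH3B1 and ALDH3A1; they held 0.917% and 0.059% as many counts and also fell, with log2 fold changes of -2.39 and -3.65. Its near relative ALDH3B2, 327 kb away, had no count in any library, which in the shallowest library allows up to 0.0544 FPKM (3 counts; counting error only).

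Other enzymes that act on reactive aldehydes were more often lower than higher, and the sources of fatty aldehydes were split. Of 13 listed enzymes of reactive aldehydes 12 were tested; 6 were lower, 2 higher and 4 did not pass (median log2 fold change -0.20). AKR1B10, an aldo-keto reductase, had 647, 605 and 614 FPKM after Japoflavone B, against 1570 to 1623 FPKM after DMSO (log2 fold change -1.25 ± 0.05 SE; edgeR adjusted p = 5.68e-19). PTGR1, which reduces unsaturated aldehydes and ketones, fell by 0.85 log2. GSTA4, which conjugates hydroxynonenal to glutathione, fell by 0.97 log2. The 2 that rose were the reductase AKR1A1 (0.20 log2) and the glyoxalase HAGH (0.42 log2). That count of 2 was 0 to 1 in 7 alternatives, among them those without Japoflavone B replicate 1 or 2. Of 16 genes of fatty aldehyde sources with a row, 15 were tested, with 7 lower, 6 higher and 2 not passed (median -0.12 log2). Such a split is near that of all genes tested, 35.4% lower and 34.7% higher. HACL1, which releases an aldehyde in fatty acid alpha-oxidation, fell by 1.26 log2, and PHYH, the step before it, by 0.56 log2. SPHK1, the kinase that makes sphingosine 1-phosphate, averaged 2.05 ± 0.0321 FPKM after Japoflavone B and 0.687 ± 0.0929 FPKM after DMSO (SD, n = 3), log2 fold change 1.67 ± 0.17. The sphingosine 1-phosphate lyase SGPL1, named after its values were seen, did not pass (0.02 ± 0.05 log2, SE, edgeR adjusted p = 0.692). CYP4F3, a fatty acid hydroxylase with close paralogs whose shared reads were not resolved, fell by 1.65 log2.

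The acetaldehyde enzymes moved little. ALDH2 is the mitochondrial enzyme that clears acetaldehyde from ethanol. ALDH2 (ENSG00000111275, chromosome 12, 111766887 to 111817532, plus strand) had 5.12, 5.76 and 5.72 FPKM after Japoflavone B, against 6.63, 7.07 and 7.63 FPKM after DMSO. The groups were separate by a narrow gap, and the log2 fold change was -0.26 ± 0.07 (SE; edgeR adjusted p = 0.00167), or 1.20-fold lower. ALDH1B1, a mitochondrial relative of ALDH2, was higher. ALDH1B1 had 32.1, 32.1 and 29.5 FPKM after Japoflavone B, against 26.0, 28.2 and 26.2 FPKM after DMSO, log2 fold change 0.32 ± 0.06 (SE; edgeR adjusted p = 2.22e-05). That call was lost as TPM (log2 0.11, limma adjusted p = 0.0753). Of 12 listed genes of ethanol oxidation 5 were tested, since the classical alcohol dehydrogenases were near 0 counts. The 3 that fell were ACSS1, which activates acetate in mitochondria (-1.96 log2), ADH5, the formaldehyde-clearing class III enzyme (-0.56 log2), and catalase, CAT (-0.18 log2). The cytosolic acetate enzyme ACSS2 did not pass (0.16 log2; edgeR adjusted p = 0.0587).

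**Figure D2:**
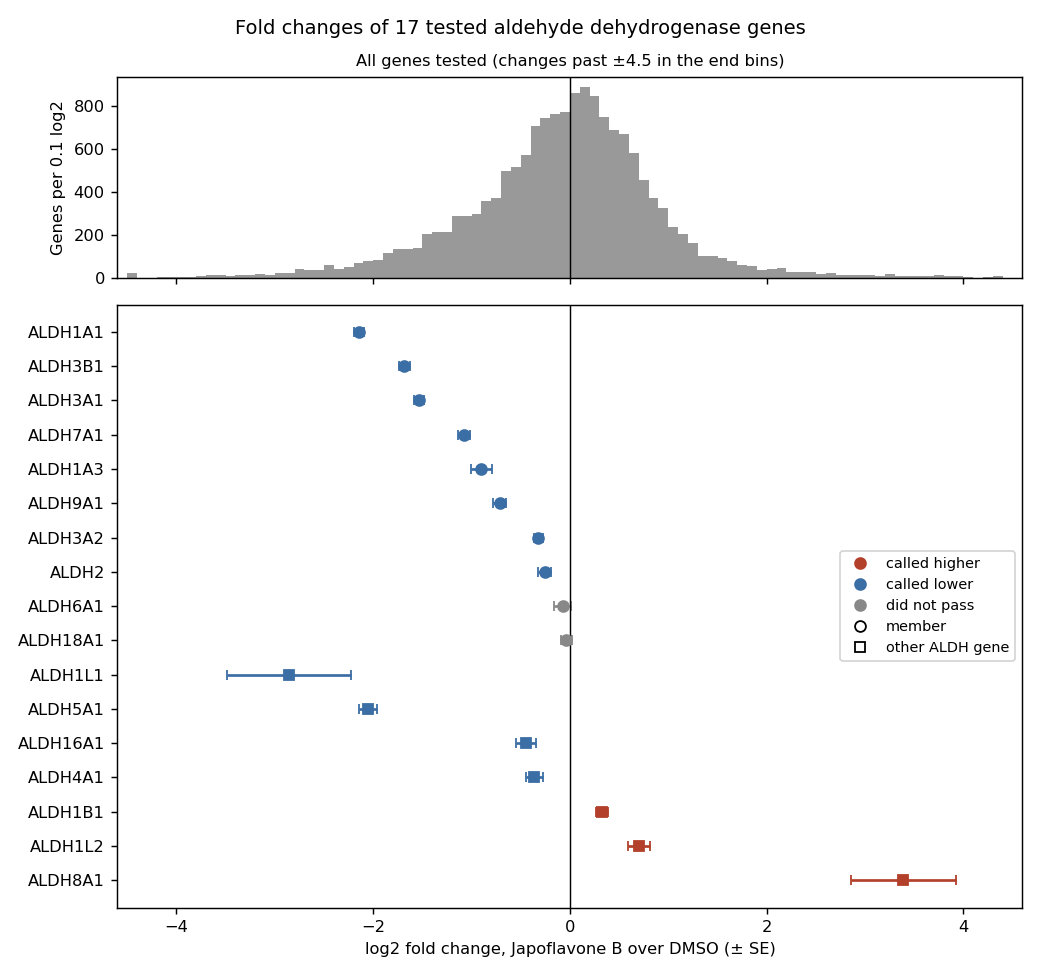
Lower panel: log2 fold change (Japoflavone B over DMSO, ± SE) of the 17 tested aldehyde dehydrogenase genes, members as circles and other family genes as squares, in blue where called lower, red where called higher and grey where not passed; upper panel: the same quantity for all 16082 genes. The members run from -2.15 (ALDH1A1) to -0.04 (ALDH18A1), and the 3 genes called higher, ALDH1B1, ALDH1L2 and ALDH8A1, are not members.

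Members with roles in amino acid and carnitine metabolism included the 2 that did not pass. ALDH6A1, the mitochondrial methylmalonate semialdehyde dehydrogenase of valine breakdown (ENSG00000119711, chromosome 14, 74056847 to 74084492, minus strand), had 3.44, 3.46 and 3.25 FPKM after Japoflavone B, against 3.79, 4.10 and 3.54 FPKM after DMSO. The highest treated and the lowest DMSO library were 0.08 FPKM apart, and the log2 fold change of -0.08 ± 0.09 (SE) had an approximate 95% interval of -0.25 to 0.10 (edgeR adjusted p = 0.455; exact permutation p = 0.4). It was called lower as TPM (log2 -0.26, limma adjusted p = 0.0203). BBOF1 overlaps it on the opposite strand with 25.2% as many counts and was higher by 0.35 log2 (adjusted p = 0.0483).

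Around ALDH6A1 more genes of branched-chain amino acid breakdown fell than rose. Of 24 tested, 11 were lower, 5 higher and 8 not passed (median log2 fold change -0.18); 2 to 3 were higher in 5 alternatives, and 17 were lower as TPM. ACADSB, a branched short-chain acyl-CoA dehydrogenase, had 3.33, 3.14 and 3.36 FPKM after Japoflavone B, against 9.68, 9.05 and 8.45 FPKM after DMSO (log2 fold change -1.37 ± 0.08 SE; edgeR adjusted p = 4.3e-15). The leucine-pathway carboxylase subunit MCCC2 fell by 0.73 log2 and the thiolase ACAT1 by 0.83 log2. HIBCH, the valine-pathway hydrolase upstream of ALDH6A1 and named after its values were seen, fell by 1.02 log2. Those that rose included ABAT (1.42 log2), PPM1K (1.00 log2), ACAD8 (0.32 log2) and DLD (0.14 log2).

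ALDH7A1, also called antiquitin, acts in lysine breakdown and on betaine aldehyde, and it fell 2.11-fold. ALDH7A1 (ENSG00000164904, chromosome 5, 126531200 to 126595362, minus strand) had 2.77, 2.66 and 2.92 FPKM after Japoflavone B, against 6.18, 6.27 and 6.47 FPKM after DMSO. Every treated library was below every DMSO library, and the log2 fold change was -1.08 ± 0.06 (SE; edgeR adjusted p = 3.47e-15). Of 10 listed genes of lysine breakdown and choline oxidation 7 were tested, with 3 lower, 2 higher and 2 not passed (median 0.20 log2). These counts stand beside 35.4% lower and 34.7% higher over all genes tested. AADAT, the aminoadipate transaminase downstream of ALDH7A1, averaged 1.28 ± 0.114 FPKM after Japoflavone B and 3.78 ± 0.0808 FPKM after DMSO (SD, n = 3), log2 fold change -1.46 ± 0.15. DHTKD1, of the next step, fell by 0.46 log2. The choline dehydrogenase CHDH had a log2 fold change of -1.21 (edgeR adjusted p = 7.56e-07). DLST rose by 0.37 log2, and DMGDH by 2.96 ± 0.67 log2 from 44 counts over the Japoflavone B libraries against 6 over the DMSO libraries. GCDH did not pass (0.20 log2; edgeR adjusted p = 0.137).

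ALDH9A1, which makes the carnitine precursor butyrobetaine and acts on polyamine-derived aldehydes, fell 1.64-fold. ALDH9A1 (ENSG00000143149, chromosome 1, 165662216 to 165698562, minus strand) had 14.8, 15.6 and 16.1 FPKM after Japoflavone B, against 28.5, 26.4 and 27.0 FPKM after DMSO. The groups lay more than 10 FPKM apart, and the log2 fold change was -0.71 ± 0.06 (SE; edgeR adjusted p = 8.7e-11). Of 13 listed genes around it 9 were tested, with 2 lower, 3 higher and 4 not passed (median 0.02 log2). Beside them, 35.4% of all genes tested were lower and 34.7% higher. The carnitine importer SLC22A5 fell by 1.09 log2 and the monoamine oxidase MAOA, a source of aldehydes, by 1.35 log2. SMOX, the spermine oxidase that releases an aminoaldehyde, had 145, 154 and 149 FPKM after Japoflavone B, against 55.3, 62.1 and 66.6 FPKM after DMSO (log2 fold change 1.39 ± 0.06 SE; edgeR adjusted p = 7.01e-18). The carnitine acyltransferases CRAT and CPT1A rose by 0.59 and 0.40 log2.

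ALDH18A1 makes pyrroline-5-carboxylate from glutamate, the first step of proline and ornithine synthesis, and did not pass. ALDH18A1 (ENSG00000059573, chromosome 10, 95605941 to 95656711, minus strand) had 26.5, 26.5 and 26.4 FPKM after Japoflavone B, against 28.6, 28.3 and 30.6 FPKM after DMSO. The treated libraries were nearly equal and below all DMSO libraries in FPKM. With trimmed-mean scaling the log2 fold change was -0.04 ± 0.06 (SE), with an approximate 95% interval of -0.15 to 0.07 (edgeR adjusted p = 0.556; exact permutation p = 0.7). It was called lower in 4 alternatives, which used library totals, FPKM at 2 pseudocounts, or TPM (log2 -0.25 to -0.14), and its direction turned without DMSO replicate 3 (log2 0.0032, not passed).

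The enzymes after ALDH18A1 were mostly higher. Of 13 genes of proline and ornithine synthesis and its supply with a row, 11 were tested, with 7 higher and 4 lower (median 0.36 log2). PYCR1, the mitochondrial reductase that finishes proline, had 31.0, 31.1 and 30.7 FPKM after Japoflavone B, against 15.7, 19.2 and 18.0 FPKM after DMSO (log2 fold change 0.91 ± 0.07 SE; edgeR adjusted p = 1.5e-12). Its relative PYCR3 had a log2 fold change of -0.91 ± 0.11 (SE; edgeR adjusted p = 4.27e-08). OAT, which links ornithine to the same intermediate, rose by 0.15 log2 with groups that overlapped in FPKM. PYCR1 and OAT were named after their values were seen. The list also holds genes of neighbouring supply routes: ASNS rose by 3.52 log2, PSAT1 by 1.55 log2, the glutamine transporter SLC1A5 by 0.77 log2, and the transcription factor ATF4, a regulator of amino acid synthesis genes, by 1.64 log2. Besides PYCR3, those that fell included GLUL, glutamine synthetase (-1.27 log2) and GLUD1 (-0.22 log2). ALDH4A1, which runs the opposite reaction to ALDH18A1 in proline breakdown, had 6.11, 5.55 and 5.66 FPKM after Japoflavone B, against 8.21, 8.26 and 7.45 FPKM after DMSO (log2 fold change -0.36 ± 0.09 SE; edgeR adjusted p = 0.000495).

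**Figure D3:**
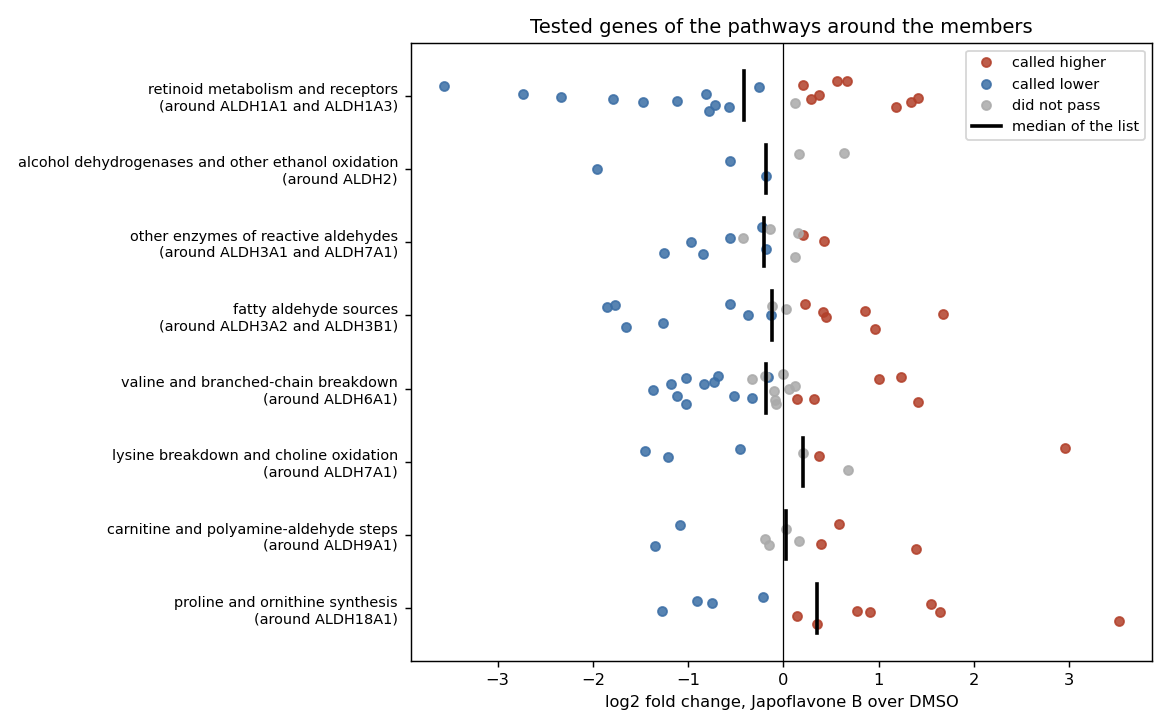
Log2 fold change (Japoflavone B over DMSO) of each tested gene in the 8 lists of pathways around the members, coloured by call, with the list median as a black bar; vertical scatter within a row has no meaning. Retinoid genes have a median of -0.42 and the proline and ornithine list 0.36, and every list other than ethanol oxidation holds calls in both directions. For comparison, 35.4% of all genes tested were called lower and 34.7% higher.

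The other family genes divided. Of 9, 7 were tested, with 4 lower and 3 higher and a median log2 fold change of -0.36. Among all genes tested 35.4% were lower and 34.7% higher. ALDH5A1, the mitochondrial succinic semialdehyde dehydrogenase of GABA breakdown, had 1.30, 1.18 and 1.44 FPKM after Japoflavone B, against 5.76, 5.82 and 5.96 FPKM after DMSO. This 4.16-fold decrease (log2 -2.06 ± 0.09 SE; edgeR adjusted p = 2.24e-17) was close in size to that of ALDH1A1. GPLD1, which overlaps ALDH5A1 on the opposite strand with 14.9% as many counts, was also lower, by 1.87 log2. ALDH16A1 had 4.40, 4.36 and 4.33 FPKM after Japoflavone B, against 5.29, 6.77 and 7.15 FPKM after DMSO (log2 -0.45 ± 0.10 SE; edgeR adjusted p = 0.000255); PIH1D1 overlaps it on the opposite strand with 177% as many counts.

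The paired formyltetrahydrofolate dehydrogenases went opposite ways at very different levels. Mitochondrial ALDH1L2 had 2.13, 2.22 and 2.35 FPKM after Japoflavone B, against 1.67, 1.53 and 1.18 FPKM after DMSO (log2 0.70 ± 0.11 SE; edgeR adjusted p = 2.8e-06). The genes WASHC4 and NOPCHAP1 overlap it on the opposite strand with 622% and 125% as many counts, at -0.08 (not passed) and 0.53 log2. Cytosolic ALDH1L1 had 3, 0 and 2 counts after Japoflavone B, against 17, 16 and 11 counts after DMSO (log2 -2.86 ± 0.63 SE; edgeR adjusted p = 0.000225), and a log2 fold change of -3.45 without Japoflavone B replicate 1. On the log2(FPKM + 1) scale, which shrinks the change of low genes, it was -0.07 and the call was lost (limma adjusted p = 0.13). ALDH8A1, an enzyme of tryptophan breakdown, had 20, 19 and 37 counts after Japoflavone B, against 1, 5 and 2 counts after DMSO (log2 3.39 ± 0.53 SE; edgeR adjusted p = 2.28e-06). Its log2 fold change was 4.06 without DMSO replicate 2 and 0.50 on the log2(FPKM + 1) scale, and it was called higher in both. ALDH1A2, another retinaldehyde dehydrogenase, had 10 counts over the Japoflavone B libraries and 13 over the DMSO libraries and was not tested.

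The summed level of the family was lower after Japoflavone B, and ALDH1A1 made up less of it. The 19 genes summed to 921 ± 10.4 FPKM after Japoflavone B and 3665 ± 114 FPKM after DMSO (SD, n = 3). Without ALDH1A1 the sums were 295 ± 2.76 FPKM after Japoflavone B and 692 ± 32.3 FPKM after DMSO. ALDH1A1 held 67.7% to 68.2% of the summed FPKM after Japoflavone B and 80.9% to 81.5% after DMSO. ALDH3A1 held 16.3% to 16.6% after Japoflavone B and 12.5% to 13.3% after DMSO, and ALDH1B1 3.24% to 3.50% after Japoflavone B and 0.690% to 0.776% after DMSO. These ranges did not overlap between the groups; they are shares of one sum, so a fall of its largest part raises the others.

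**Figure D4:**
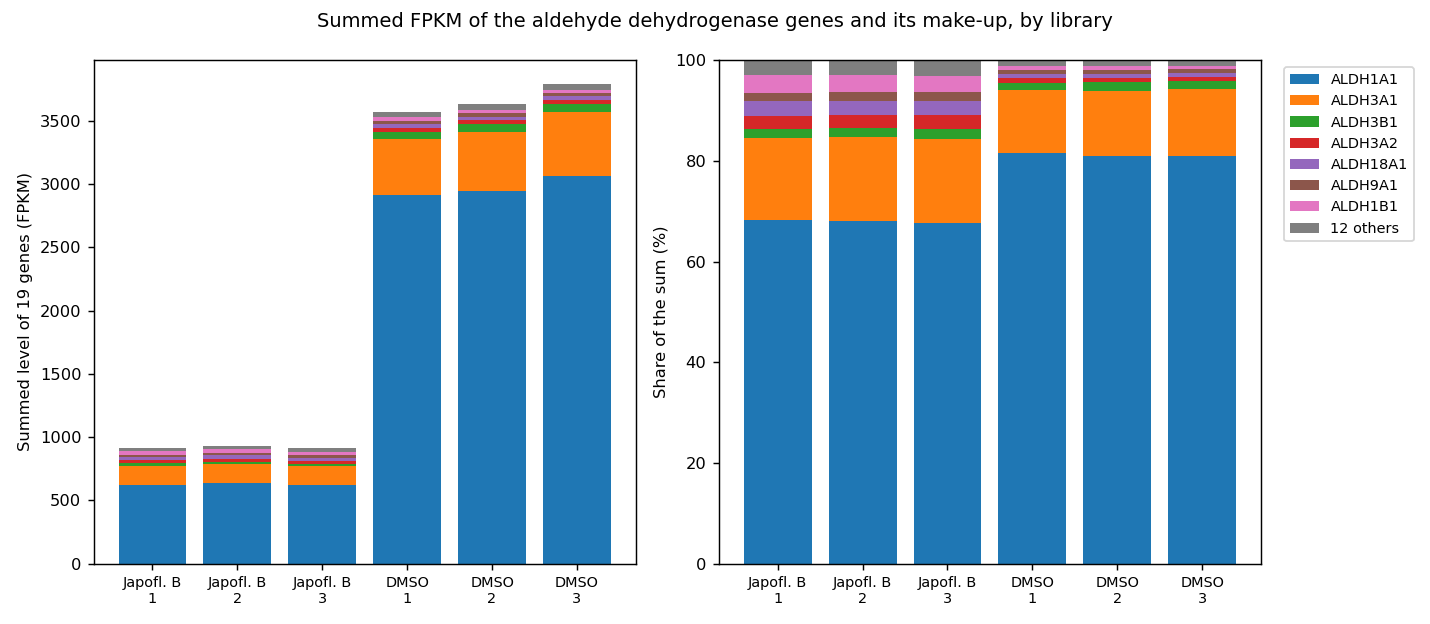
Summed FPKM of the 19 aldehyde dehydrogenase genes in each library (left, from 0) and the share of that sum by gene in percent (right), with the 3 Japoflavone B libraries left of the 3 DMSO libraries; the 7 most abundant genes have their own colour and the other 12 are grey. The sum is 913 to 932 FPKM after Japoflavone B and 3570.5 to 3791 FPKM after DMSO, and ALDH1A1 is the largest part in each library.

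The order of the levels per length was similar at the top and changed below it. After Japoflavone B the order of mean FPKM was ALDH1A1, ALDH3A1, ALDH1B1, ALDH18A1, ALDH3A2, ALDH3B1 and ALDH9A1, and no neighbours among these 7 overlapped in their library ranges. After DMSO it was ALDH1A1, ALDH3A1, ALDH3B1, ALDH3A2, ALDH18A1, ALDH9A1 and ALDH1B1, where ALDH18A1 and ALDH9A1, and ALDH9A1 and ALDH1B1, overlapped. ALDH4A1 and ALDH2, in places 8 and 9 of both orders, overlapped in both groups.

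The genes closest in pattern were found for the members with the lowest and the highest fold change. Closeness was the Euclidean distance between 6 log2 CPM, each centred on the gene's mean. Candidates had a symbol and lay on the same side of the threshold. Clone-type names and names starting with LINC, LOC or MT- were left out. With libraries so alike within each group, this distance mainly compares fold changes. Nearest to ALDH1A1, among 10528 genes, were CD24 (distance 0.0586), a surface glycoprotein with 31.1 FPKM after Japoflavone B and 149 FPKM after DMSO, ZNF326 (0.0875) and SLC22A3 (0.129), an organic cation transporter. The log2 fold changes of CD24, ZNF326 and SLC22A3 were -2.16, -2.16 and -2.07, against -2.15 for ALDH1A1. Nearest to ALDH18A1, among 4079 genes, were WWP1 (0.0468), RTN3 (0.0478) and RIC8A (0.0485). Shared regulation was not tested.

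**Figure D5:**
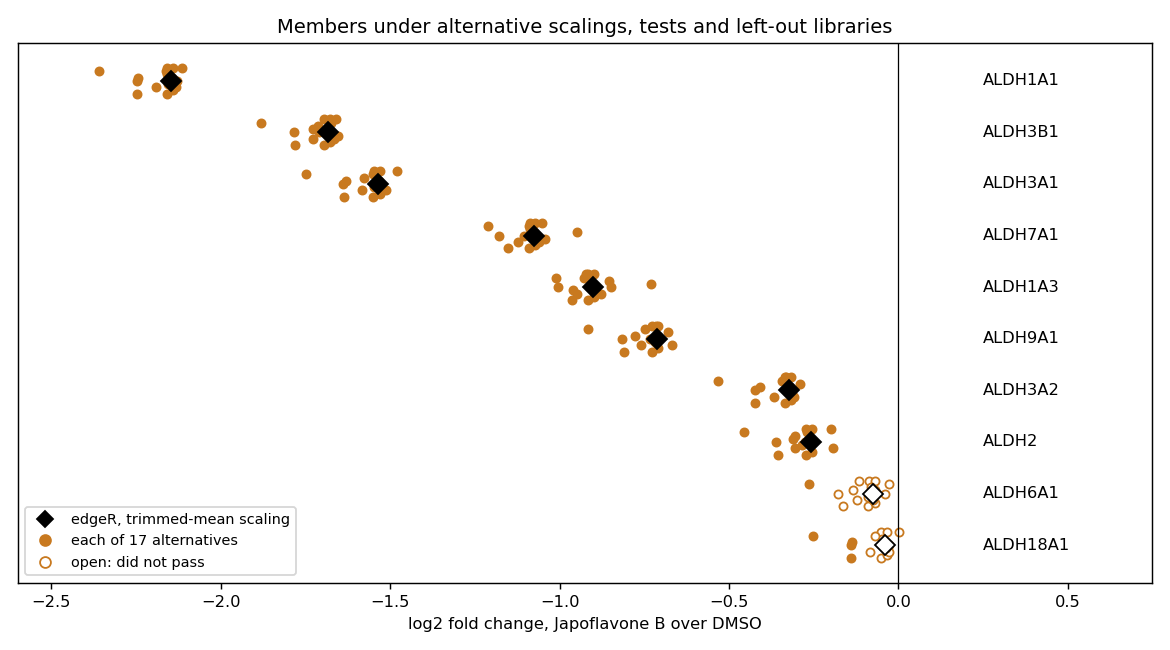
Log2 fold change (Japoflavone B over DMSO) of each member in edgeR with trimmed-mean scaling (diamonds) and in each of 17 alternatives (circles), open where the adjusted p did not pass 0.05; vertical spread within a row has no meaning. The 8 called members stay filled and below 0 in all 17, while ALDH6A1 passes in 1 and ALDH18A1 in 4.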

How the data were processed

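Per the submitters' processing notes the tools were cutadapt 1.9.1, HISAT2 2.0.1, HTSeq 0.6.1 and DESeq2, with the build GRCh38; roles, annotation release and strand setting are not given in the sources used here. The deposited table holds raw counts per gene, and the authors' FPKM derived from them, the exonic gene size in bases (another deposited column) and the column total; recomputed values differed by at most 0.005. Counts were fitted in edgeR 4.0.16 (R 4.3.3; quasi-likelihood, group as the single term, filterByExpr with a minimum count of 10 and total of 15, trimmed-mean factors), adjusted by Benjamini-Hochberg over 16082 genes, with 99.8% or more of each library's counts kept. SE is the log2 fold change over the root of F; intervals are ± 1.96 SE. On simulated counts for this comparison (16082 genes) 62% of 100 genes changed 1.5-fold and 80% of 100 changed 2-fold were recovered, with 6 of 15882 unchanged genes called. The simulation changed only these 100 and 100 genes, whereas 70.0% of genes were called in the data, so its rates may not carry over. Alternatives used limma 3.58.1 and DESeq2 1.42.0. Depth was 15298531 to 21744407 counts; the floor of 3 counts covers counting error only. Members and gene lists were chosen with earlier results of these data known. The rule named all aldehyde dehydrogenases, up to 4 genes of each list by adjusted p (mean of at least 1 FPKM in the higher group), every gene of a direction holding 5 or fewer, and the nearest genes; others are marked in the text. Some genes the rule would name are counted but not reported here. Of the 19 genes, 5 had coordinates identical to GENCODE 29, so those printed are the table's. Promoters are from RefSeq (GRCh38.p14).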

Additional observations from a re-analysis of the deposited data

How the results depend on the processing

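In 17 alternatives 8 to 10 members were called lower and 0 higher; the 8 calls of the main test kept direction and threshold in each, with ALDH1A1 at -2.36 to -2.12 log2 and ALDH2, the smallest, at -0.45 to -0.19. Leaving out 1 library at a time left 8 members lower and 0 higher each time, and 5345 to 5663 genes lower and 5296 to 5681 higher over all genes. Leaving out 1 library gave ALDH18A1 log2 fold changes of -0.069 to 0.0032, reversed without DMSO replicate 3; it was called lower with library totals (-0.14), log2(FPKM + 1) (-0.14), log2(FPKM + 0.1) (-0.14) and log2(TPM + 1) (-0.25). With a mean of at least 2 FPKM, which drops low genes, 1 of the other family genes was called higher in place of 3. The share of calls that were higher was 49.5%, and 42.4% with library totals, 42.8% and 42.7% as FPKM and 35.0% as TPM, with 7169 genes lower and 3868 higher as TPM; the median gene shifted by -0.10 and -0.21 log2 with library totals and TPM. Counts in the lists moved by over 1.5 times as follows: retinoid genes higher 5 in place of 8 (as FPKM, TPM or with the FPKM minimum) and lower 6 in place of 11 (FPKM minimum); reactive-aldehyde enzymes higher 0 to 1 in place of 2 in 7 alternatives, 2 of which left out Japoflavone B replicate 1 or 2; branched-chain genes higher 2 to 3 in place of 5 in 5 alternatives and lower 17 in place of 11 as TPM; and, with the FPKM minimum, fatty-aldehyde genes higher 3 in place of 6, lysine genes higher 1 in place of 2 and carnitine genes lower 0 in place of 2. Ethanol genes higher were 1 in place of 0 without DMSO replicate 1. The cause was not tested. With the replicate block 8 members were lower, and 5618 and 5502 genes were lower and higher; replicate numbers did not pair the libraries, with deviations that correlated at 0.013, -0.0042 and -0.045. As a share of counts in place of FPKM, ALDH1A1 held 53.7% after Japoflavone B and 71.6% after DMSO. Depth limits ALDH1A2, ALDH3B2, ALDH1L1 and ALDH8A1.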
